A study of Mus musculus with 6 samples.

Results

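The 9 genes described here encode proteins of the inner HC (hair cell) and of its ribbon synapse, namely Otof, Slc17a8, Cacna1d, Cabp2, Ctbp2, Tbx2, Bsn, Rims2 and Pclo. They were chosen by name for their known roles, with earlier results of these data known, and all 9 were found among the 24421 gene symbols of the count table. Each of the 9 passed the filter on low counts and was tested. RNA was measured in cochlear explants of WT mice, isolated at postnatal day 2, in 3 control samples and 3 neomycin samples. Each sample pooled 6 to 8 cochleae, which had been dissected free of the modiolus, the tectorial membrane and the anlage of the stria vascularis. After 12 h in culture the neomycin group received the antibiotic at 1 mM over 6 h, and 5 more days followed with EdU at 10 μM. The treatment label sets the groups, although the protocol text of all 6 samples describes neomycin and none says what the control samples received in its place. The labels do not say whether the pools of a group came from separate litters or cultures, so the p-values measure the spread between these pools, which may be partly technical. Total counts ran from 50471116 to 66068108 reads per sample.

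Inner HCs are the sensory cells that pass sound information to the auditory nerve. Sound opens ion channels in the hair bundle, the cell depolarizes, and calcium enters through CaV1.3 channels clustered under an electron-dense ribbon. The ribbon, built largely from RIBEYE, tethers vesicles that have been filled with glutamate by VGLUT3, and otoferlin is needed for their fusion with the membrane. Bassoon, piccolo and RIM proteins are scaffolds of the active zone, the patch of membrane where release takes place. Aminoglycosides such as neomycin enter HCs and kill them.

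After neomycin, 5 of the 9 genes were lower and 0 were higher by the study's own limits, which ask for a Benjamini-Hochberg p below 0.05 together with a change of more than 1.5-fold (edgeR quasi-likelihood test over 15988 genes). Among all genes tested, 8.84% were called, with 6.60% lower and 2.24% higher. The 5 were Cabp2, Otof, Rims2, Slc17a8 and Cacna1d, and what was left of them ranged from 13.8% of the control mean for Cabp2 to 55.3% for Cacna1d. Ctbp2 also had a low adjusted p-value but a smaller change, at 73.8% of control. Bsn, Pclo and Tbx2 did not pass. The median log2 fold change of the 9 genes was -0.88, beside 0.00 over all genes tested. In 7 of the 9 genes, each of the neomycin samples lay below each of the control samples, as they did in 22.5% of all genes tested. The groups did not overlap in either direction in 43.5% of all genes, and the neomycin samples lay above in 21.0%. In whole explants, fewer HCs and less RNA per HC cannot be told apart. Nor can RNA of inner HCs be told from that of outer HCs or other cells, for any of the 9 genes.

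**Figure D1:**
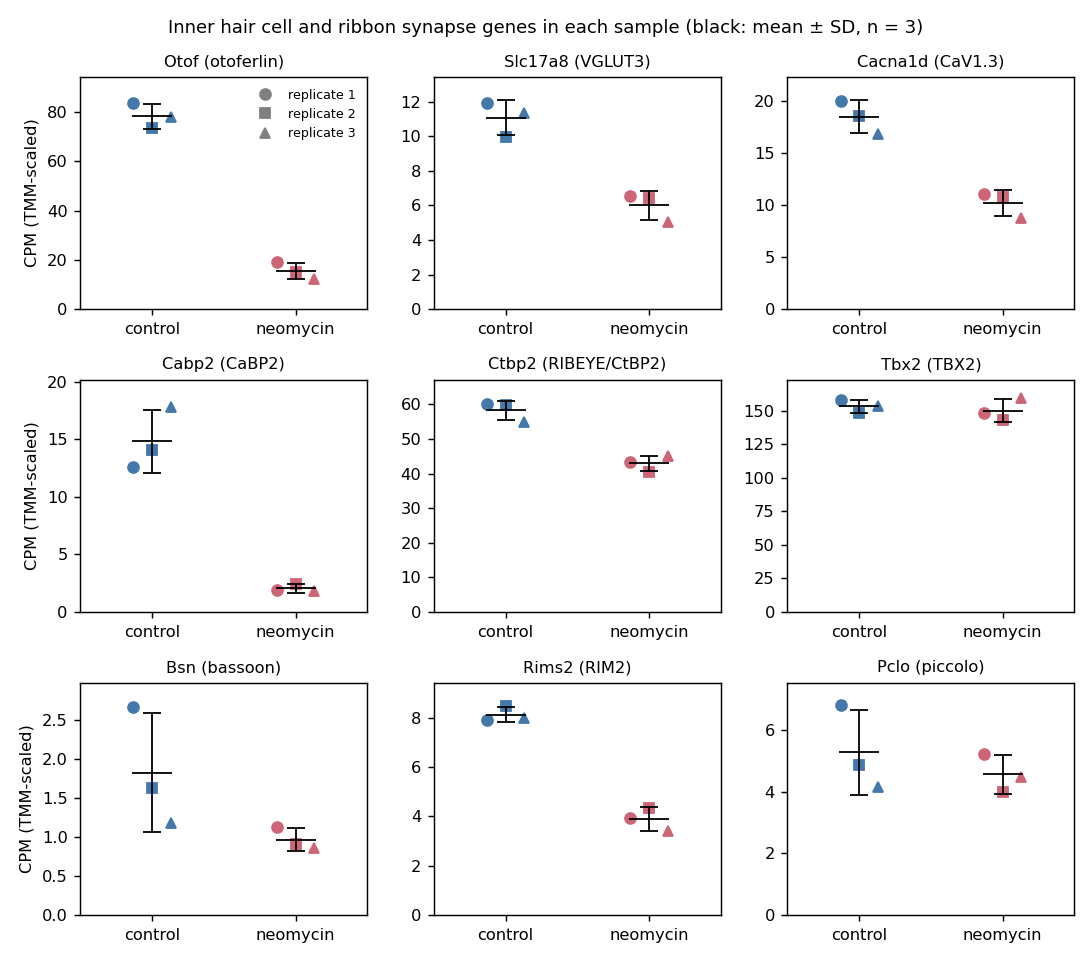
Level of each of the 9 genes in each sample, in CPM, with control samples in blue, neomycin samples in red and the mean ± SD in black (n = 3). Control and neomycin points are separate in 7 panels, with the widest gaps for Otof and Cabp2, and overlap for Tbx2 and Pclo.

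Otof encodes otoferlin, a C2-domain protein that acts as a calcium sensor for vesicle fusion and replenishment in HCs. It lies on chromosome 5 of mm10 from 30367062 to 30461932, and no other annotated gene overlaps it. Levels are given in CPM, read counts scaled to library size by TMM. Otof had 83.7, 73.6 and 77.9 CPM in control replicates 1, 2 and 3 and 19.0, 15.2 and 12.4 CPM in neomycin replicates 1, 2 and 3. Every neomycin sample was thus far below the lowest control sample. The means were 78.4 ± 5.05 and 15.5 ± 3.32 CPM (SD, n = 3), which is -2.34 ± 0.13 (SE) in log2 units by edgeR, with an adjusted p of 2.05e-07. The level after neomycin was 19.8% of control.

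Cabp2 encodes CaBP2, an EF-hand protein of the calmodulin family that holds CaV1.3 channels open for longer by slowing their inactivation. It lies on chromosome 19 from 4081578 to 4087340 and had the largest fall of the 9 genes. Control replicates 1, 2 and 3 had 12.6, 14.1 and 17.9 CPM, and neomycin replicates 1, 2 and 3 had 1.88, 2.46 and 1.81 CPM. The groups were far apart although the control samples differed among themselves. The means were 14.8 ± 2.73 and 2.05 ± 0.356 CPM, which is -2.85 ± 0.18 (SE) in log2 units by edgeR, with an adjusted p of 5.64e-07.

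Cacna1d encodes the pore-forming subunit of CaV1.3, the L-type channel that carries most of the calcium current of inner HCs. It spans chromosome 14 from 30039939 to 30491455, where 7 annotated genes overlap it, 6 of them on the opposite strand, and the strand setting of the counting is not given in the sources used here. The control samples had 20.0, 18.6 and 16.8 CPM and the neomycin samples 11.1, 10.8 and 8.81 CPM. The lowest control sample was above the highest neomycin sample. By edgeR it changed by -0.86 ± 0.12 (SE) in log2 units, at an adjusted p of 0.000338. With a correction for exon length it was -0.63 and was still called.

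Slc17a8 encodes VGLUT3, the transporter that loads glutamate into the vesicles of inner HCs. It lies on chromosome 10 from 89574020 to 89621253, with no overlapping gene. The control samples had 11.9, 9.99 and 11.4 CPM and the neomycin samples 6.55, 6.44 and 5.03 CPM. The groups did not overlap, yet more than for Otof was left, 54.2% of the control mean. By edgeR it changed by -0.88 ± 0.14 (SE) in log2 units, at an adjusted p of 0.000863.

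Promoter sequences are shown for both strongly and moderately lowered genes, Cabp2 and Slc17a8, and for Pclo, which was not called, so that a called and an uncalled gene can be read side by side. Each is the stretch of 250 bases before a RefSeq start site (build GRCm38.p6), read 5′ to 3′ on the strand of the gene. Capitals mark CANNTG, the E-box letters that factors such as ATOH1 bind, searched on both strands. The window of Cabp2 is chr19:4082238-4082487 on the plus strand, within the annotated span of the gene. That of Slc17a8 is chr10:89621250-89621499 on the minus strand, and that of Pclo is chr5:14514668-14514917 on the plus strand.
Cabp2: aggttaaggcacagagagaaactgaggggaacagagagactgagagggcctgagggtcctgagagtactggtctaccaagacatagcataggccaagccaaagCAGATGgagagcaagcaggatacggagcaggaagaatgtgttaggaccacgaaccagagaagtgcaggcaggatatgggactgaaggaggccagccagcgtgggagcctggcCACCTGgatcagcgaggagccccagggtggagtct
Slc17a8: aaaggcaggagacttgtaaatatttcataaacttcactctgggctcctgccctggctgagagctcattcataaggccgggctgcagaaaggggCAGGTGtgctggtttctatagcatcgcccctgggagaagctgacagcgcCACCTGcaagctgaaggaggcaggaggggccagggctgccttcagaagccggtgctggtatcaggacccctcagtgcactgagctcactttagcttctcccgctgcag
Pclo: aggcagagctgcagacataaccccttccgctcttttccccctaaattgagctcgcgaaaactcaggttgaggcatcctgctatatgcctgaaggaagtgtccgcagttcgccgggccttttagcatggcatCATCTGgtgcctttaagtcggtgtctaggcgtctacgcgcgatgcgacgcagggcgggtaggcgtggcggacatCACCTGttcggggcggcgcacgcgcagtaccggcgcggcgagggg
Each of these 3 windows held 2 E-boxes, but others of the same genes held fewer, since a window at another start of Cabp2 had 0 and a second one of Slc17a8 had 1. A window of Bsn and a window of Cacna1d had 0 as well. In all, 10 windows of 6 of the 9 genes were matched, and Otof, Tbx2 and Rims2 had no entry. CANNTG was in 7 of the 10 and in 66.2% of the 32851 windows of the whole table. CAGATG, 1 of the E-box variants, was in 3 of the 10, the windows of Cabp2 and Pclo shown here and a window at another start of Slc17a8, and in 14.4% of all windows. ATTAAT, a run of letters bound by POU factors, was in 1 of the 10, a window of Ctbp2, and in 4.39% of all windows. A match is a run of letters and does not show that a factor binds there.

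Ctbp2 is a gene with 2 kinds of product. From its upstream start sites it encodes CtBP2, a transcriptional corepressor found in most cells, and from a start inside the gene it encodes RIBEYE, the main protein of synaptic ribbons. In the GENCODE annotation of mm10 a transcript for the corepressor starts at position 133123367 of chromosome 7 and encodes 445 amino acids, while the RIBEYE transcript starts at 133015248 and encodes 988. Counts per gene add both, so RIBEYE was not measured on its own. The control samples had 60.0, 59.7 and 55.0 CPM and the neomycin samples 43.4, 40.6 and 45.0 CPM. The groups were separate and the spread within each was small. The means were 58.2 ± 2.81 and 43.0 ± 2.24 CPM, which is -0.44 ± 0.07 (SE) in log2 units by edgeR, with an adjusted p of 0.00131, a change under the fold threshold. Fgfr2 overlaps the annotated span of Ctbp2 on the same strand.

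Rims2 encodes RIM2, an active zone protein that promotes the clustering of CaV1.3 channels at the synapses of inner HCs. It lies on chromosome 15 from 39198261 to 39684372. Its level was 7.90, 8.45 and 7.99 CPM in the control samples and 3.92, 4.34 and 3.41 CPM in the neomycin samples. It had a narrow spread in both groups and no overlap. By edgeR it changed by -1.06 ± 0.15 (SE) in log2 units, at an adjusted p of 0.000352, with 47.9% of the control mean left.

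Bsn and Pclo encode bassoon and piccolo, very large related scaffolds that are found at ribbons and at conventional synapses of neurons. Bsn, on chromosome 9 from 108096022 to 108190384, had 2.67, 1.63 and 1.17 CPM in control replicates 1, 2 and 3 and 1.13, 0.915 and 0.856 CPM in neomycin replicates 1, 2 and 3. The groups did not overlap, but the lowest control sample and the highest neomycin sample were close. Its log2 fold change was -0.92, with a 95% interval from -1.65 to -0.19, and it was not called (adjusted p = 0.0570, edgeR). Control replicate 1 decided its size, since without it the log2 fold change was -0.53 (adjusted p = 0.326, edgeR). Without control replicate 3 it was -1.15 and was called (adjusted p = 0.0201, edgeR).

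Pclo, on chromosome 5 from 14514918 to 14863459, had 6.83, 4.85 and 4.15 CPM in the control samples and 5.23, 3.98 and 4.47 CPM in the neomycin samples. The groups overlapped. Its log2 fold change was -0.21, with a 95% interval from -0.64 to 0.22 (adjusted p = 0.447, edgeR), and it turned to 0.03 without control replicate 1 and to 0.09 with the correction for exon length. Control replicate 1 was the highest control sample for 7 of the 9 genes, for 13 of 18 neuron markers and for 16 of 18 genes of conventional synaptic vesicles. It was the highest for 34.8% of all genes tested.

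Tbx2 encodes a T-box transcription factor that makes and keeps HCs inner rather than outer, and it is also active in other cells of the cochlea. It lies on chromosome 11 from 85832551 to 85841948. The control samples had 158, 148 and 154 CPM and the neomycin samples 148, 143 and 159 CPM. The groups overlapped fully. Its log2 fold change was -0.03, with a 95% interval from -0.18 to 0.13 (adjusted p = 0.788, edgeR), which leaves out a change as large as that of any of the 5 genes called. Without neomycin replicate 2 the value was 0.01.

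**Figure D2:**
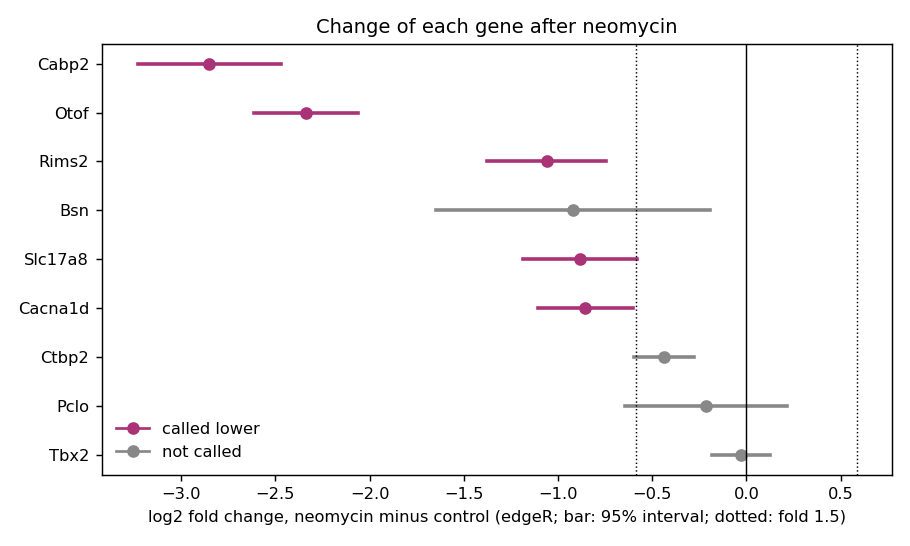
Log2 fold change of each of the 9 genes, neomycin minus control, with its 95% interval from edgeR as a bar and the fold threshold of 1.5 as dotted lines. Cabp2 and Otof lie below -2, the other 3 genes called lie between -1.06 and -0.86, and the intervals of Pclo and Tbx2 reach across 0.

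Set on 1 scale, as CPM per kb of exon, the 9 genes covered a wide range in the control samples. Tbx2 was highest at 42.3 ± 1.33 CPM per kb (SD, n = 3). Cabp2 at 11.0 ± 2.02, Otof at 9.92 ± 0.639 and Ctbp2 at 9.36 ± 0.452 CPM per kb followed, and neighbours in that order had overlapping values. Slc17a8 had 2.35 ± 0.211, Cacna1d 1.47 ± 0.127, Rims2 0.781 ± 0.0287, Pclo 0.235 ± 0.0619 and Bsn 0.114 ± 0.0480 CPM per kb, with no overlap between neighbours from Ctbp2 downwards. After neomycin Ctbp2 stood second at 6.91 ± 0.360 CPM per kb. Otof at 1.96 ± 0.421 CPM per kb then overlapped with Cabp2 at 1.52 ± 0.264, and Cabp2 overlapped with Slc17a8 at 1.27 ± 0.180 CPM per kb. Levels per kb rest on the summed length of all annotated exons, and a gene of which only a short transcript is made comes out too low.

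**Figure D3:**
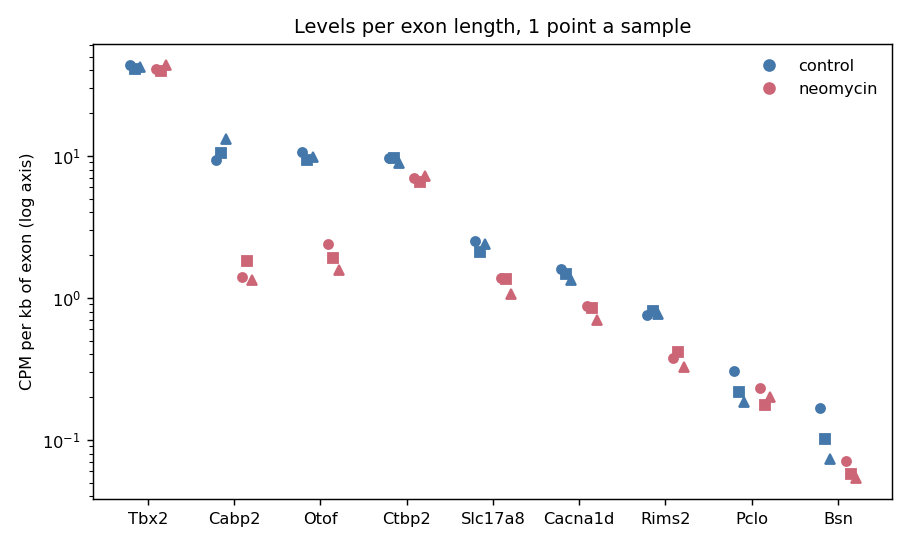
Levels of the 9 genes in CPM per kb of exon on a log axis, 1 point a sample, with genes ordered by their control mean. The blue control points and red neomycin points lie together for Tbx2, while Cabp2 and Otof drop from the height of Ctbp2 to near that of Slc17a8.

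To ask whether genes changed unequally, the log2 ratio of 2 genes was taken within each sample for 11 pairs (0.5 CPM added to each) and compared between the groups. The exact two-sided permutation test cannot give a p under 0.1 with 3 samples against 3, so no pair could pass 0.05. In 7 of the 11 pairs the groups did not overlap, and each of the 7 had p = 0.1 (exact permutation test) and an adjusted p of 0.157 over the pairs. A background share was not computed for pairs.

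The ratio of Otof to Slc17a8 was 2.76, 2.82 and 2.73 on the log2 scale in the control samples and 1.47, 1.17 and 1.22 in the neomycin samples. Each neomycin sample lay below each control sample, so Otof was lower relative to Slc17a8, with a difference of -1.48 between the means. Slc26a5, the gene of prestin, the motor protein of outer HCs, went from 25.8 ± 2.33 to 1.61 ± 0.280 CPM, or 6.27% of control. The log2 ratio of Otof to Slc26a5 went from 1.59 ± 0.157 in control to 2.91 ± 0.127 after neomycin, and that of Slc17a8 to Slc26a5 from -1.18 ± 0.205 to 1.62 ± 0.0366 (SD, n = 3). Slc17a8 RNA was below Slc26a5 RNA in each control sample and above it in each neomycin sample, in CPM and not per length.

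Against Myo7a, the gene of the myosin used to stain HCs of both kinds, Otof went down, from 1.52 ± 0.164 to 0.30 ± 0.168 on the log2 scale. The ratio of Slc17a8 to Myo7a was -1.25 ± 0.174 in control and -0.98 ± 0.121 after neomycin, and the groups overlapped (exact two-sided permutation test, p = 0.2). Myo7a itself was left at 45.4% of control. For Cabp2 to Otof the groups overlapped as well (exact two-sided permutation test, p = 0.4), with a difference of -0.26 in the log2 ratio.

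The ratio of Rims2 to Rims1 went from 2.59 ± 0.292 to 1.87 ± 0.249 and that of Bsn to Pclo from -1.34 ± 0.131 to -1.78 ± 0.108 on the log2 scale, both without overlap. Tbx2 to Tbx3 was 2.61 ± 0.238 in control and 2.63 ± 0.0781 after neomycin and overlapped (exact two-sided permutation test, p = 0.9).

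**Figure D4:**
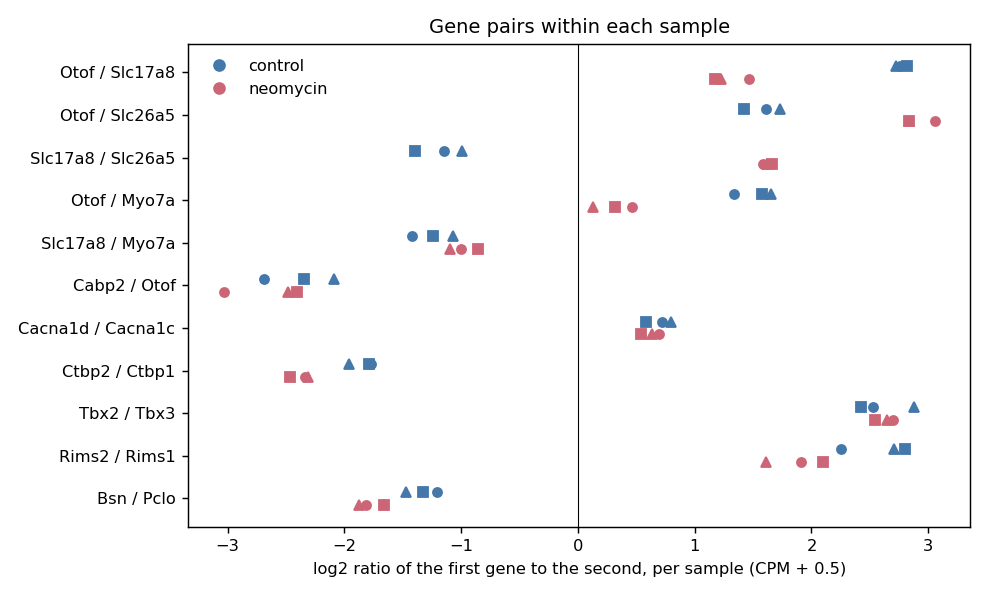
Log2 ratio of the first gene to the second in each sample, with control samples in blue and neomycin samples in red, for the 11 pairs. The colours are separate in 7 rows, and the farthest apart are those of Slc17a8 to Slc26a5, where all control points are below 0 and all neomycin points above it.

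The nearest relatives of the 9 genes, encoded by separate genes, moved in several ways. Ctbp1, the paralog of Ctbp2, had 210 ± 5.36 CPM in control and 225 ± 2.57 after neomycin, and the log2 ratio of Ctbp2 to Ctbp1 went from -1.84 ± 0.107 to -2.37 ± 0.0836 without overlap. Cacna1c, which encodes the related channel CaV1.2, went from 11.2 ± 1.52 to 6.48 ± 0.910 CPM, -0.79 in log2 units (edgeR, adjusted p = 0.00225), close to that of Cacna1d. The groups overlapped in the ratio of the pair (exact two-sided permutation test, p = 0.4). Rims1 had 0.949 ± 0.270 CPM in control and 0.696 ± 0.0789 after neomycin, well under Rims2, and was not called. Rims3 fell from 2.41 ± 0.693 CPM to 24.8% of that level, -2.01 in log2 units (edgeR, adjusted p = 0.00160).

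Among the CaBP relatives, Cabp7 fell from 1.58 ± 0.0800 to 0.314 ± 0.169 CPM and Cabp1 from 1.27 ± 0.108 to 0.557 ± 0.115 CPM, and Cabp4 was called lower at 0.801 CPM in control and 0.197 CPM after neomycin (edgeR, adjusted p = 0.0125). Few counts lay behind these levels after neomycin. Cabp7 had 22, 7 and 22 counts in neomycin replicates 1, 2 and 3, and Cabp4 had 12, 16 and 5. Cabp1 had 23, 39 and 31. Of the ferlins related to otoferlin, Myof, Dysf and Fer1l5 were at 84.1%, 80.0% and 81.1% of control. None was called, although Dysf had an adjusted p of 0.0398 (edgeR). Slc17a6 and Slc17a7, the transporters VGLUT2 and VGLUT1 of neurons, were at 2.88 ± 1.20 and 1.04 ± 0.591 CPM in control and at 1.68 ± 0.162 and 0.521 ± 0.0700 after neomycin, with adjusted p-values of 0.0721 and 0.0944 (edgeR). Tbx3, the relative of Tbx2, was at 95.9% of control. Of 15 relatives tested, 5 were called lower and 0 higher, against 6.60% and 2.24% of all genes. The lists share genes, since Cabp1, Ctbp1 and Rims1 are also counted among the ribbon synapse partners and Slc17a6 and Slc17a7 among the neuron markers.

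Partners of the ribbon synapse were taken from a list of 17 genes, of which 15 were in the table and tested. Of these, 6 were lower and 0 higher, against 6.60% and 2.24% of all genes, with a median log2 fold change of -0.45. Gipc3, a PDZ protein needed for HC function and hearing, fell the most, by edgeR to -3.47 ± 0.25 (SE) in log2 units at an adjusted p of 2.14e-06. Rimbp2, which links RIM proteins to calcium channels, fell from 1.91 ± 0.0809 to 0.412 ± 0.138 CPM. Clrn1, the gene of the Usher protein clarin-1, fell from 12.2 ± 1.83 to 3.11 ± 1.12 CPM. Cacnb2, the β2 subunit that CaV1.3 uses in inner HCs, was left at 49.5% of control, near the 55.3% of Cacna1d. Cabp1 and Syt7 were the other two called lower. Erc1 had an adjusted p of 0.00817 (edgeR) but was at 72.7% of control, under the fold threshold. Wrb, which encodes a factor that inserts tail-anchored proteins and handles otoferlin in HCs, was at 99.9% of control. Ush1c and Ctbp1 were the 2 with positive values, 0.18 and 0.10 on the log2 scale, and did not pass.

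Other inner HC genes were few. Atp2a3, a calcium pump of the endoplasmic reticulum, had 56.9, 49.6 and 52.7 CPM in control and 7.02, 3.68 and 4.02 CPM after neomycin, which is -3.44 ± 0.19 (SE) in log2 units by edgeR, with an adjusted p of 2.1e-07. Fgf8, a growth factor that inner HCs secrete, had 3.99, 4.29 and 4.50 CPM in control and 1.26, 1.44 and 1.29 CPM after neomycin, and fell to 31.2%. Shtn1 was at 95.9% of control and was not called.

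HC genes of wider use fell too, and their counts stand against 6.60% of all genes called lower and 2.24% called higher. Of 16 markers of both HC types, 13 were lower and 0 higher, with a median of -1.37, and Tmc1, Loxhd1 and Myo15 had the largest falls, to 11.2%, 15.5% and 19.4% of control. Their summed level ran from 439 to 473 CPM in the control samples and from 236 to 288 CPM in the neomycin samples, of which Myo6, not called, made up 61.9% to 63.0%. Without Myo6 the sums were 246, 232 and 257 CPM in control and 110, 97.7 and 87.9 CPM after neomycin. Of 10 outer HC genes, 6 were lower and 0 higher, with a median of -1.60, and their summed level ran from 578 to 736 CPM in control and from 251 to 284 CPM after neomycin. Lbh, at 104% of control and not called, made up 74.0% to 76.8% of the sum after neomycin, and the other 9 genes summed to 383, 438 and 532 CPM in control and to 72.9, 68.6 and 58.1 CPM after neomycin. Ocm, the calcium buffer oncomodulin, was left at 9.43% and Strc, which encodes stereocilin, at 11.6%. These shares are below those of Slc17a8, Cacna1d and Rims2, and no test was made between the lists. Atoh1 and Pcdh15 were at 96.9% and at 100.2% of control and were not called.

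Bsn, Pclo, Rims2, Ctbp2 and Cacna1d are also used by neurons, so markers of other cells were read beside them. Over all genes tested, 6.60% were called lower and 2.24% higher. Of 18 neuron markers, 3 were lower and 0 higher, the neurofilament genes Nefh, Nefl and Nefm, with log2 fold changes of -1.21, -1.15 and -0.89 (edgeR, adjusted p = 0.0187, 0.000919 and 0.00387). The median of the list was -0.54. The summed level of the 18 ran from 316 to 397 CPM in the control samples and from 303 to 330 CPM after neomycin, and the groups overlapped. Isl1 alone made up 32.4% to 41.4% of the sum in control and 45.6% to 52.6% after neomycin. The other 17 summed to 268, 207 and 185 CPM in control and to 157, 158 and 165 CPM after neomycin, so that without Isl1 every neomycin sample was below every control sample. No marker of the list was at 3 counts or fewer in all samples. The values of Nefh overlapped between the groups, since the highest neomycin sample had 4.61 CPM and the lowest control sample 4.47 CPM. Stmn2 and Gap43 were at 103% and 98.5% of control, and Isl1 at 121% with an adjusted p of 0.0302 (edgeR), under the fold threshold. Most of the list went the other way, with negative log2 fold changes in 14 of the 18. Thy1, the lowest of those not called, was at 44.0% of control. Of 18 genes of conventional synaptic vesicles, 9 were lower and 0 higher, with a median of -0.58, led by Syt2, Cplx1 and Snap25. Control replicates 1, 2 and 3 had 1.61, 0.824 and 0.729 CPM of Syt2, 19.4, 11.2 and 7.93 CPM of Cplx1 and 14.2, 9.37 and 8.59 CPM of Snap25. Syt2 had only 14, 20 and 4 counts in the neomycin samples. The summed level of the 18 vesicle genes ran from 353 to 428 CPM in control and from 334 to 373 CPM after neomycin. The groups overlapped with and without Vamp2, the most abundant of them. Without control replicate 1, without neomycin replicate 2 and without neomycin replicate 3 the count called was 4, 5 and 4, and the first of these was 3 lower and 1 higher. Without control replicate 3 the neuron count was 7, all lower. The part of neurons in the values of Bsn, Pclo, Rims2, Ctbp2 and Cacna1d was not tested. The part of outer HCs in the values of these genes, and of Otof and Cabp2, was not tested either.

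The lists of supporting cells, mesenchyme and Schwann cells had medians nearer to 0, and no test was made between lists. Their counts, too, stand against 6.60% of all genes called lower and 2.24% called higher. Of 15 supporting cell markers 3 were lower, Prox1, Fgfr3 and Ngfr, and 1 was higher, Tectb, with a median of -0.06, and of 8 mesenchyme markers Col1a1 was lower and Dcn higher, with a median of 0.08. Of 9 Schwann cell markers, Erbb3 was lower and S100b higher, with a median of 0.04. The summed level of the supporting cell markers ran from 5228 to 6396 CPM in control and from 6751 to 9859 CPM after neomycin, most of it from Tectb, and overlapped without Tectb. Without neomycin replicate 1 the supporting cell count was 2. That of the mesenchyme list ran from 5746 to 6276 CPM and from 6183 to 6405 CPM.

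**Figure D5:**
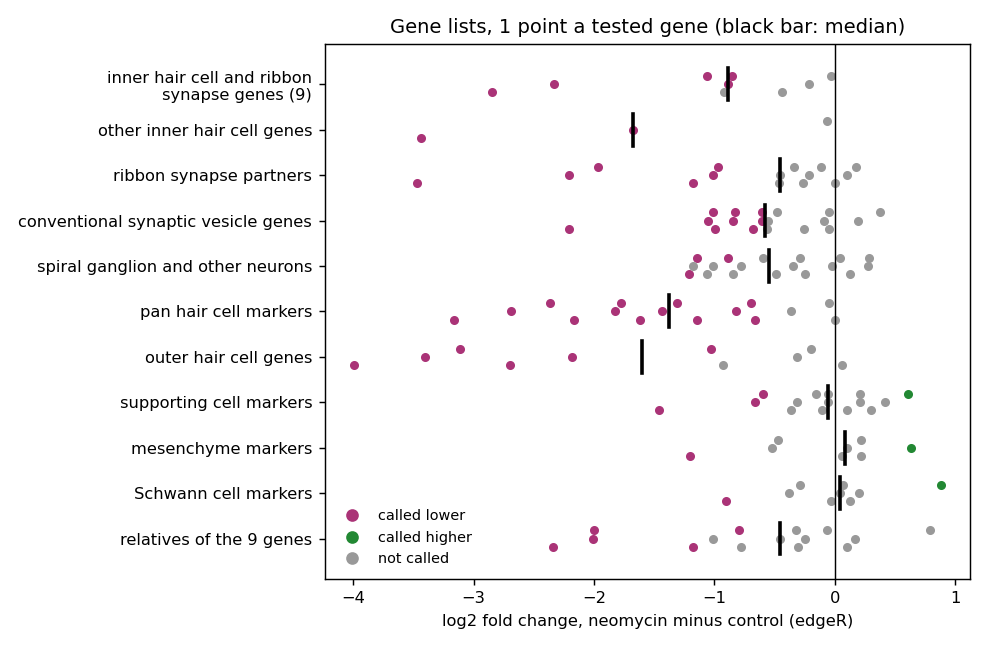
Log2 fold change of every tested gene in the 11 lists, neomycin minus control, with genes called lower in purple, genes called higher in green, other genes in grey and the median of each list as a black bar. The 3 HC lists have their medians between -1.68 and -1.37, the 9 genes at -0.88, and supporting cells, mesenchyme and Schwann cells close to 0.

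For each of the 9 genes, the 3 genes with the most similar pattern were found among all 15988 tested, by the root mean square difference over the 6 samples of log2 CPM set to 0 at the control mean. This is a description of 6 samples in which the split between the groups is the main difference. Nearest to Otof were St8sia3, Fcrlb and Lrtm2, at differences of 0.10, 0.14 and 0.14. Nearest to Slc17a8 were Nf2, Asic1 and Cacna1d, at 0.08, 0.10 and 0.10, so that Cacna1d, another of the 9 genes, was among them. Nearest to Cabp2 were Osbp2, Chrna9 and Tunar, at 0.17, 0.18 and 0.18. Chrna9, which is on the list of outer HC genes, went from 23.6 to 3.63 CPM and encodes a subunit of the receptor for efferent input on HCs. Nearest to Bsn were Fam171b, Cadps and Kif5a, at 0.12, 0.13 and 0.13, and Rims2 was closest to Frmpd1, Akr1c14 and Map4, at 0.06, 0.07 and 0.08. Cacna1d had Ppp1r3e and Rsbn1, each at 0.06, and Ctbp2 had Sh3bp4, Pcdh9 and Slc43a3 at 0.03, 0.03 and 0.04. For Pclo they were Col4a6, Cubn and Dsc2, at 0.06, 0.07 and 0.07, and for Tbx2 Tmc4, Fam124a and Pick1, each at 0.02.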

How the data were processed

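RNA of 6 pooled explant samples, 3 control and 3 neomycin, was sequenced after mRNA library preparation. The authors called bases with CASAVA 1.8, trimmed with Trimmomatic 0.23, aligned to mm10 with HISAT2 and counted with HTSeq, and deposited raw counts, 1 row for each symbol. The strand setting and the treatment of multi-mapping reads are not given in the sources used here, so overlapping genes may share reads. All 6 columns of the table were mapped to samples by their titles.

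Counts were scaled by TMM and filtered with filterByExpr in edgeR 4.0.16 (R 4.3.3), and 15988 of 24421 genes were compared between the groups by its quasi-likelihood test, and p-values were adjusted by Benjamini-Hochberg across them. Genes were called below 0.05 when they also changed more than 1.5-fold, as in the study, which used DESeq2. The SE of a log2 change is its size over the root of the F statistic. CPM are read counts scaled to library size by TMM. Exon lengths and coordinates came from GENCODE M21 on mm10, promoter windows from RefSeq. Pair ratios were tested with exact permutation tests in scipy 1.17.1, and figures drawn with matplotlib 3.10.9. Replicates of a group differed by a mean chi-square per gene of 12.2 to 39.9, more than counting noise, so none was treated as the same library deposited again. This does not tell separate cultures from separate preparations.

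The 9 genes and the gene lists were chosen with earlier results of these data known, and no list was tested as a set. The genes named are the 9, their relatives at 1 CPM or more in either group mean, the 3 largest changes called in each list, the genes of the pairs and the 3 nearest genes, of which 1 is not reported here. Others named, among them Cacnb2, Erc1, Wrb, Syt7, Ush1c, Shtn1, Ngfr, Cabp4, Atoh1, Pcdh15, Stmn2, Gap43 and Isl1, were picked after their values were seen. Alternatives were DESeq2 1.42.0, limma-voom (limma 3.58.1), other scalings (3), low-count filters (2) and call limits (3), a block for replicate number, a correction for exon length (lowess, span 0.3, lengths for 99.3% of genes) and each sample left out in turn. The fit was tested on simulated data.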

Additional observations from a re-analysis of the deposited data

How the results depend on the processing

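Cabp2, Otof, Rims2, Slc17a8 and Cacna1d stayed called lower in each of the 15 other fits. With a fold change over 2 in place of 1.5, 3 of the 9 genes were called, Cabp2, Otof and Rims2. Bsn, not called in the main test, was called with DESeq2 (adjusted p = 0.0366), without a filter on low counts (0.0437), with a filter at 1 CPM in 3 samples (0.0445), with a replicate block (0.0402) and without control replicate 3, and its adjusted p ran from 0.0201 to 0.326 over the 15 fits. Pclo changed sign with the correction for exon length (0.0926) and without control replicate 1 (0.0269), and Tbx2 without neomycin replicate 2 (0.0053), none of them called. With 1 sample left out in turn Pclo ran from -0.3499 to 0.0269 and Tbx2 from -0.0733 to 0.0053 in log2 units, and 5 to 6 of the 9 genes were called. The cause was not tested.

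The counts of other inner HC genes, ribbon synapse partners, markers of both HC types and outer HC genes stayed within 1.5 times under each of the 18 other settings. Other lists moved. For conventional synaptic vesicle genes the count called was 5 at an adjusted p under 0.01, 3 at a fold change over 2 and 4 to 10 with 1 sample left out (10 without control replicate 3). For neurons it was 6 with DESeq2, 7 without a filter on low counts, 5 with the length correction (4 lower and 1 higher), 5 without a fold threshold and 3 to 7 with 1 sample left out. For supporting cells it was 2 with the length correction, 8 without a fold threshold, 1 at a fold over 2 and 2 to 4 with 1 sample left out. For mesenchyme it was 1 with total counts only, 4 without a fold threshold, 1 at a fold over 2 and 1 to 3 with 1 sample left out, with 1 without control replicate 2. For Schwann cells it was 0 at a fold over 2. For the relatives it was 3 at an adjusted p under 0.01 and 3 to 6 with 1 sample left out, with 3 without control replicate 2.

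Whether replicate numbers pair the samples was not settled. Same-numbered samples had correlations of their deviations of 0.17, 0.03 and 0.09, and differently numbered samples had -0.13 to 0.03. Each neomycin sample correlated best with the control sample of its own number. Control replicate 2, however, correlated slightly better with neomycin replicate 3 (0.032) than with its own number (0.026). With the replicate block 1465 genes were called in place of 1413. Of the pairs, 7 to 9 did not overlap with 1 sample left out, and with 1 CPM added the difference of Slc17a8 to Slc26a5 was 2.57 in place of 2.80 and that of Otof to Slc26a5 was smaller too. Bsn had the fewest counts of the 9 genes, 46 to 184 per sample.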
